A study of Arabidopsis thaliana with 18 samples.

Results

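The comparison set the triple mutant ref5-1 med5a-1 med5b-1 against the triple mutant ref2-1 med5a-1 med5b-1, with 3 libraries each, which are 6 of the 18 libraries of the series. Libraries were assigned by the genotype in their labels. Both genotypes carry the med5a-1 and med5b-1 alleles, written med5 below, so they differ by design only in the glucosinolate allele. The ref5-1 allele is a missense change in CYP83B1 (AT4G31500) and the ref2-1 allele lies in CYP83A1 (AT4G13770). The other genotypes, also with 3 libraries each, were wild type, ref5-1, ref2-1 and med5. All were Arabidopsis thaliana of the Columbia-0 ecotype under long days, and each library held poly(A) RNA from a pool of 5 whole rosettes taken at 18 days. In whole rosettes, fewer cells of a type and less RNA per cell cannot be told apart.

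Glucosinolates are sulfur-rich defence compounds of the cabbage family. Amino acids are first oxidised to aldoximes, and CYP83A1 takes aldoximes of methionine-derived, aliphatic glucosinolates onward whereas CYP83B1 takes the tryptophan-derived aldoxime of indole glucosinolates, which is also a source of auxin. Loss of either enzyme lowers phenylpropanoids, the pathway that gives sinapate esters and lignin, and MED5, a tail subunit of the Mediator complex that joins transcription factors to RNA polymerase II, is known to be needed for that repression. The comparison sets the lesions in CYP83B1 and CYP83A1 side by side in plants that lack MED5.

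The libraries held 19578169 to 33193849 gene counts, and both extremes were ref5-1 med5 libraries. In ref5-1 med5 replicate 1, the shallowest, 25.3% of read records had several alignments, against 3.71% to 8.91% in the other 17 libraries. The same library had lower salicylate defence transcripts than its replicates, and results that rest on it are given with and without it. In ref5-1 med5 replicate 3, all 14 tested electrophile response genes and all 9 tryptophan and camalexin genes were at their highest of the 3 ref5-1 med5 libraries. Because a library is 1 pool, a p-value here describes pool-to-pool spread. The 19 photosystem genes, which mark green tissue, summed to 67015 to 76848 CPM in ref5-1 med5 and 66634 to 70095 CPM in ref2-1 med5. Of 8 root markers, 2 passed the filter on low counts. Both were higher in ref5-1 med5 than in ref2-1 med5, with log2 fold changes of 0.21 and 2.09. In edgeR 2 had an unadjusted p under 0.05 and 0 an adjusted p under 0.05, or 0 to 1 with 1 library left out.

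The targeted genes were read first. CYP83A1 stood at 499.5, 461 and 446 CPM (counts scaled to a common library size with edgeR's TMM factors) in the ref5-1 med5 libraries and at 154, 141 and 120.2 CPM in the ref2-1 med5 libraries. The groups were far apart, with a log2 fold change of 1.76 ± 0.11 (SE), and edgeR's quasi-likelihood test with Benjamini-Hochberg adjustment over 19897 genes, used for every adjusted p below, gave 3.17e-08. MED5B (AT2G48110) was at 6.91, 7.79 and 7.6 CPM in ref5-1 med5 and 8.47, 7.61 and 8.24 CPM in ref2-1 med5, against 23.5 to 25.6 CPM in wild type. Its level did not differ past the threshold between the triple mutants (adjusted p = 0.436). MED5A (AT3G23590) was at 38, 37.3 and 40.8 CPM in ref5-1 med5 and 29.4, 23.4 and 27.4 CPM in ref2-1 med5. MED5A stood at 45.4 to 52.2 CPM in wild type. The libraries of the triple mutants did not overlap, and MED5A was higher in ref5-1 med5 by 0.53 ± 0.09 on the log2 scale (adjusted p = 0.0012). CYP83B1 RNA, which a missense allele need not alter and which checks no label, was at 177, 202 and 214 CPM and 181, 176 and 170.4 CPM, and the groups overlapped (adjusted p = 0.614).

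**Figure D1:**
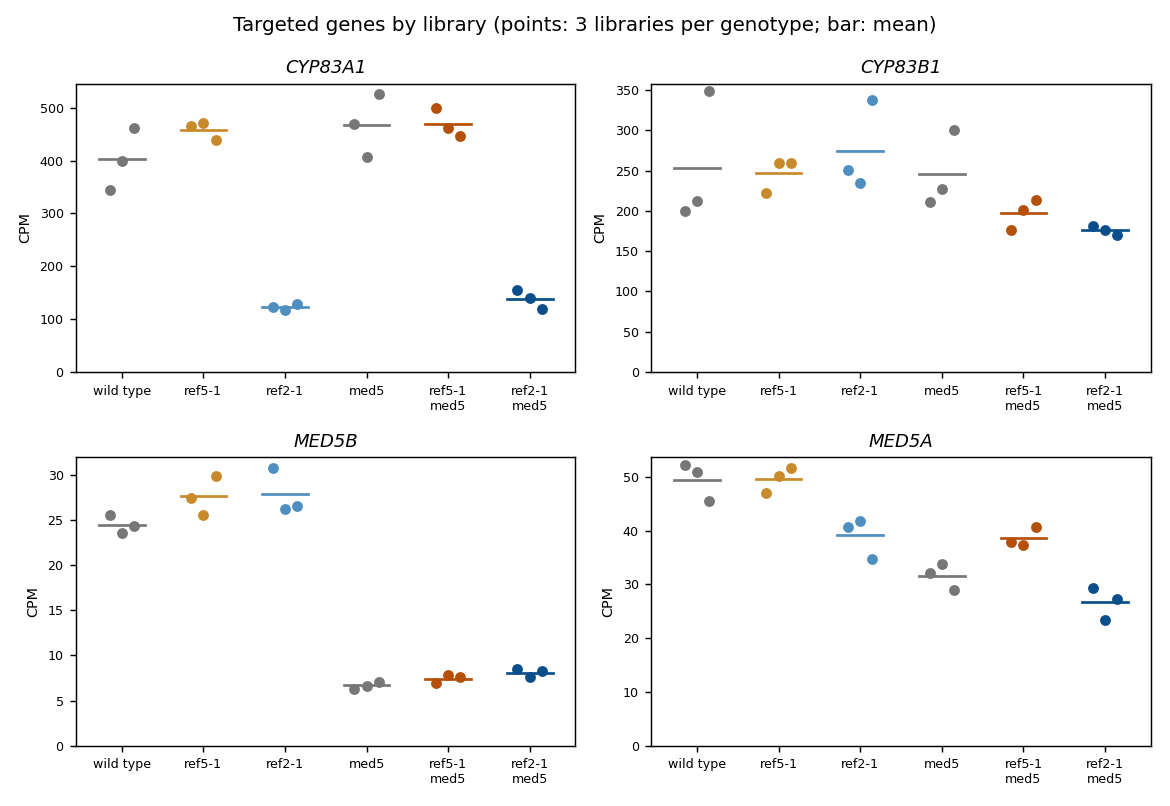
CPM of CYP83A1, CYP83B1, MED5B and MED5A in each of 18 libraries by genotype, with points for libraries and bars for means of 3. CYP83A1 is low in both genotypes with ref2-1 and MED5B is low in all 3 genotypes with med5.

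Of 19897 tested genes, 2791 were called at an adjusted p under 0.05 (14% of genes), 1443 of them higher in ref5-1 med5 (7.25%) and 1348 lower (6.77%). Most differences were small: the median called gene changed 1.42-fold, 59.5% of the called genes changed under 1.5-fold, and 496 changed at least 2-fold, 332 higher and 164 lower. Libraries of the groups did not overlap for 7025 genes (35.3% of genes tested). The number of called genes was 1613 without ref5-1 med5 replicate 1, 1482 without ref5-1 med5 replicate 2, 1569 without ref2-1 med5 replicate 1 and 1421 without ref2-1 med5 replicate 2. Without ref5-1 med5 replicate 1, 1531 of the genes called were among the 2791.

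Genes of aliphatic glucosinolate synthesis were lower in ref5-1 med5 than in ref2-1 med5. All 9 tested genes of methionine chain elongation were called lower, against 6.77% of genes tested. Their median log2 fold change was -1.15, against -0.01 over all genes tested. BCAT4 (AT3G19710), the aminotransferase that starts elongation, stood at 244, 213 and 249.9 CPM in ref5-1 med5 and 862, 789.8 and 849.6 CPM in ref2-1 med5. All ref2-1 med5 libraries lay above all ref5-1 med5 libraries, with a log2 fold change of -1.82 ± 0.13 (adjusted p = 1.46e-07). MAM1 (AT5G23010), a methylthioalkylmalate synthase that adds carbons to the chain, was at 413, 394 and 381 CPM and 1077, 934 and 1079 CPM, a log2 fold change of -1.38 ± 0.15 (adjusted p = 1.8e-05). BAT5 (AT4G12030), which carries chain-elongation intermediates across the plastid envelope, was at 133, 115 and 119.5 CPM in ref5-1 med5 and 287, 276 and 249 CPM in ref2-1 med5. BAT5 fell by 1.14 on the log2 scale with an SE of 0.08 (adjusted p = 1.93e-07), again with no overlap. The isopropylmalate dehydrogenase IPMDH1 (-1.17) and isopropylmalate isomerase subunit IPMI2 (-1.15) were lower to a like degree on the log2 scale, and BCAT3 (-0.55) least.

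The 9 enzymes of the core pathway had 8 lower in ref5-1 med5 (6.77% of genes tested were lower), with a median of -0.67. CYP79F1 (AT1G16410), which makes the aldoximes of aliphatic glucosinolates, was at 475, 436 and 431 CPM in ref5-1 med5 and 939, 854 and 1002 CPM in ref2-1 med5, a log2 fold change of -1.06 ± 0.13 (adjusted p = 5.82e-05). Its near-identical neighbour CYP79F2 can share reads with it, so both counts are uncertain. The glutathione S-transferase GSTF11 (AT3G03190) was at 15.5, 14.3 and 17.7 CPM and 41.6, 40.7 and 38.1 CPM and had the largest difference of the core list, -1.35 ± 0.14 (adjusted p = 1.54e-05). UGT74C1, a glucosyltransferase, was not called (log2 fold change -0.24, adjusted p = 0.22). For all 9 core genes the libraries of the groups did not overlap, which held for 35.3% of all genes tested.

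Of 9 tested side-chain enzymes and regulators, 5 were lower (6.77% of genes tested were) and 1 was higher (7.25% were). AOP2 (AT4G03060), a dioxygenase of side-chain modification, was at 87, 72.6 and 79.7 CPM in ref5-1 med5 and 215, 202 and 162 CPM in ref2-1 med5, a log2 fold change of -1.28 ± 0.10 (adjusted p = 3.99e-07). The sulfur-oxidising monooxygenases FMOGS-OX1 (-0.95) and FMOGS-OX3 (-0.88) were lower as well, while FMOGS-OX5 was higher by 0.26 ± 0.08 (adjusted p = 0.0383), a call that held without ref2-1 med5 replicate 3 and was lost without any of the other 5 libraries. Of the MYB activators of the aliphatic branch, MYB76 (AT5G07700) was at 4.75, 4.4 and 4.04 CPM in ref5-1 med5 and 12, 12.3 and 11.5 CPM in ref2-1 med5. MYB76 fell by 1.44 on the log2 scale (adjusted p = 7.68e-05) and MYB29 (AT5G07690) by 0.42 (adjusted p = 0.00106). MYB28 (AT5G61420), at 185 to 212 CPM and 190.1 to 216 CPM, was not called (log2 fold change -0.03, adjusted p = 0.935). Set against med5, with which both triple mutants share the control libraries, all 9 chain-elongation genes were higher in ref2-1 med5 (8.75% of genes tested were higher). In ref5-1 med5 edgeR called 0 of them higher, where 6.24% of genes were higher. For BCAT4 the log2 fold changes against med5 were 1.95 ± 0.13 in ref2-1 med5 and 0.13 ± 0.13 in ref5-1 med5 (adjusted p = 4.41e-08 and 0.596). All 9 chain-elongation genes were called lower under every alternative setting.

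**Figure D2:**
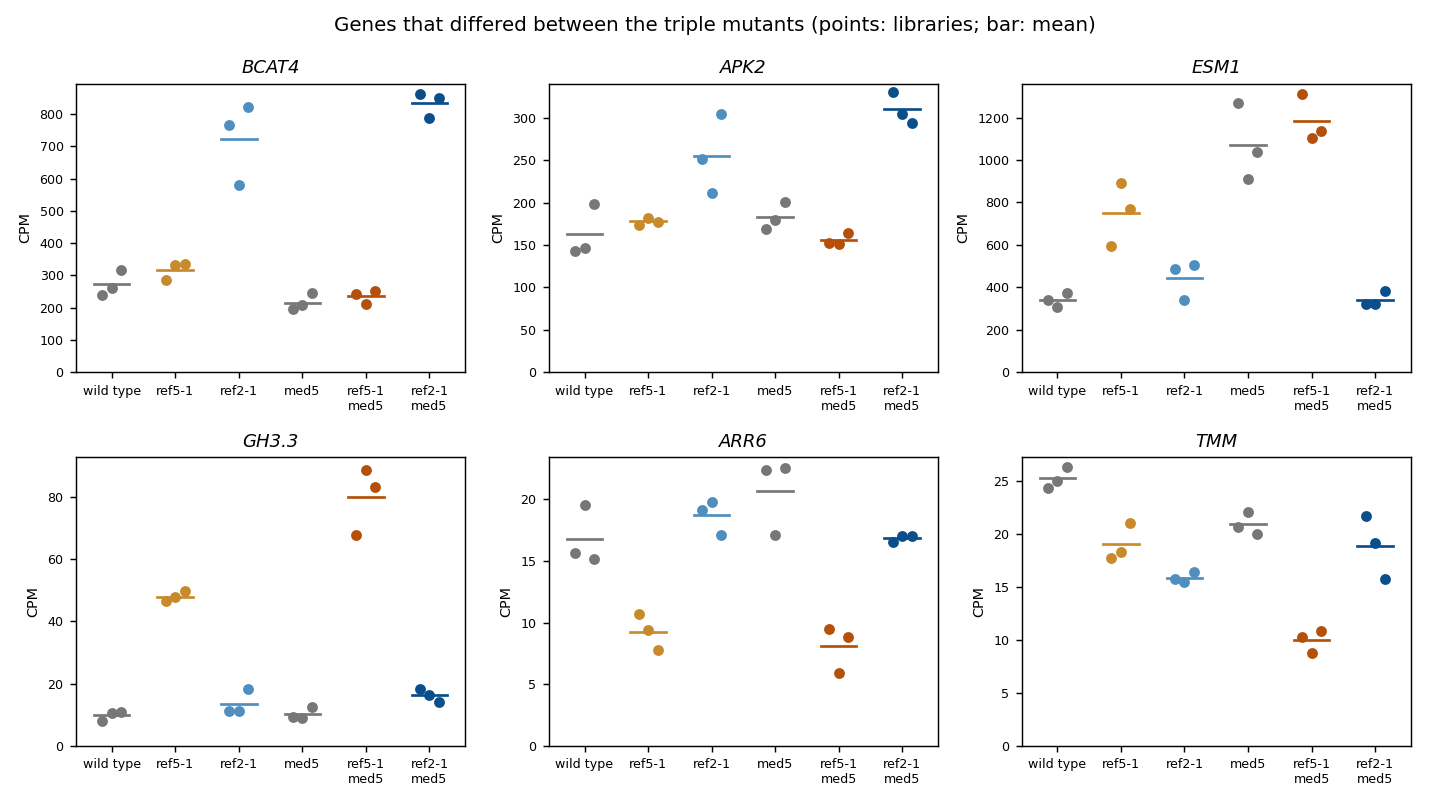
CPM of BCAT4, APK2, ESM1, GH3.3, ARR6 and TMM in each library by genotype, with points for libraries and bars for means of 3. In each panel the ref5-1 med5 and ref2-1 med5 points do not overlap.

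Sulfate assimilation, which supplies the sulfur of glucosinolates, was lower in ref5-1 med5 for 9 of 19 tested genes. The list median was -0.45, and 6.77% of all genes tested were lower. APK2 (AT4G39940), a kinase that makes the sulfate donor PAPS, stood at 153, 152 and 164 CPM in ref5-1 med5 and 331, 305 and 294 CPM in ref2-1 med5. The groups did not overlap, with a log2 fold change of -0.99 ± 0.12 (adjusted p = 7e-05). APR1 (AT4G04610), a reductase of activated sulfate, was at 116, 109.9 and 119 CPM and 239, 226 and 198 CPM, a log2 fold change of -0.95 ± 0.13 (adjusted p = 0.000213). The ATP sulfurylase APS3 (-0.97) and the vacuolar sulfate exporter SULTR4;2 (-0.55) were lower too. APR2 (-0.04, adjusted p = 0.827) and the deficiency marker SDI1 (0.83, adjusted p = 0.38) were not called. Without ref5-1 med5 replicate 1 the list had 6 lower genes.

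The indole branch had 2 calls of 15 tested genes, near the 14% of all genes. CYP81F3 (AT4G37400), of a P450 subfamily that modifies the indole ring, was higher by 0.89 ± 0.20 (adjusted p = 0.00626) and the glutathione S-transferase GSTF9 (AT2G30860) was lower, with a log2 fold change of -0.73 ± 0.14 (adjusted p = 0.00208). CYP79B2 (AT4G39950), which makes the tryptophan-derived aldoxime, was at 85.8, 84.4 and 111 CPM in ref5-1 med5 and 78.7, 68.9 and 69 CPM in ref2-1 med5. CYP79B3, a relative of CYP79B2, was at 77.3, 68.8 and 81.3 CPM and 103, 106 and 72.9 CPM, so the 2 genes pointed opposite ways and neither was called (adjusted p = 0.528 and 0.545). CYP81F4 (AT4G37410), a relative of CYP81F3, had the largest fold of the list, at 28.1, 27.9 and 29.2 CPM and 6.45, 7.52 and 5.2 CPM. Its groups did not overlap, yet it was not called (2.15 ± 0.74, adjusted p = 0.0748). DESeq2 called 2 genes of the list higher, and 3 were higher when the 6 compared libraries were fitted by themselves. MYB34 and MYB51, activators of the indole branch, were not called (0.16 and -0.13 on the log2 scale). Of 9 tryptophan and camalexin genes, edgeR called 0 and DESeq2 called 0, and 0 had an unadjusted p under 0.05. PAD3 (AT3G26830), the last enzyme of camalexin synthesis, was at 2.16, 5.62 and 73.6 CPM in ref5-1 med5 and 8.29, 4.69 and 10.1 CPM in ref2-1 med5. Replicate 3 lay far above every other library of the triple mutants, and edgeR called 0 of the 9 without replicate 3 as well.

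Genes of glucosinolate breakdown stood higher in ref5-1 med5 for 5 of 10 tested members, with a list median of 0.88. Of all genes tested, 7.25% were higher. ESM1 (AT3G14210), which promotes isothiocyanate over nitrile products, was at 1309.8, 1102 and 1138 CPM in ref5-1 med5 and 320.1, 322 and 381 CPM in ref2-1 med5. That is a log2 fold change of 1.80 ± 0.17 with no overlap (adjusted p = 6.21e-06). The myrosinase TGG1 (AT5G26000), which hydrolyses glucosinolates, was at 2774, 2786 and 2783 CPM and 1269, 1409.7 and 1575 CPM, a log2 fold change of 0.97 ± 0.21 (adjusted p = 0.00655), and its near-identical neighbour TGG2 at 1.24 ± 0.29 (adjusted p = 0.0132), counts that are uncertain as the genes can share reads. The ER-body β-glucosidase BGLU23 (AT3G09260) was at 424, 438 and 369 CPM in ref5-1 med5 and 157, 185 and 164 CPM in ref2-1 med5, a log2 fold change of 1.28 ± 0.22 (adjusted p = 0.0016), and NAI2, an ER-body component, was 0.91 ± 0.26 (adjusted p = 0.0325, a call that held only without ref5-1 med5 replicate 3 among the leave-outs). Without ref2-1 med5 replicate 1, and likewise without ref2-1 med5 replicate 2, 3 of the 5 calls were made. Against med5, the control that both share, ESM1 was 0.14 ± 0.16 in ref5-1 med5 (adjusted p = 0.649) and -1.65 ± 0.17 in ref2-1 med5 (adjusted p = 1.22e-05), while BGLU23 was 2.36 ± 0.23 and 1.08 ± 0.22. Unscaled ESM1 counts were 8464, 8133 and 9826 in wild type, 29744, 21671 and 21162 in med5, and 7146, 7822 and 8646 in ref2-1 med5. The med5 control thus stood above wild type for ESM1, and ref2-1 med5 stood near wild type.

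Auxin-responsive genes were higher in ref5-1 med5: 17 of 21 tested genes were called higher, where 7.25% of all genes tested were. A positive log2 fold change was found in 20 of 21 (list median 0.94), against 9648 of all 19897. To show the letters in front of these genes, the 300 bases before the annotated gene start in the TAIR10.1 assembly are printed for 3 of the called members, read on the gene's strand, 5′ to 3′. Capitals mark each match to the auxin response element TGTCTC or its reverse complement GAGACA. The stretches are chr2:9866563-9866862 on the minus strand for GH3.3, chr4:13653279-13653578 on the plus strand for GH3.5 and chr3:5263701-5264000 on the plus strand for IAA19, all from the NCBI RefSeq genome of that assembly. None of the 3 windows overlapped another annotated gene. The 3 were taken from the called members with a match, and members with 0 matches, such as GH3.6 and HAT2, are not printed.
GH3.3: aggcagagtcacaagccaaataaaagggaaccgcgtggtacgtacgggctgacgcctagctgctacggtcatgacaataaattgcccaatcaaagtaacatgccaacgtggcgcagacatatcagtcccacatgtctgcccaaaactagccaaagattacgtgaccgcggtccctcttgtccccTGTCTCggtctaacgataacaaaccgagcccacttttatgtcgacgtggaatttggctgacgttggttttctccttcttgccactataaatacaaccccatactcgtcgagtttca
GH3.5: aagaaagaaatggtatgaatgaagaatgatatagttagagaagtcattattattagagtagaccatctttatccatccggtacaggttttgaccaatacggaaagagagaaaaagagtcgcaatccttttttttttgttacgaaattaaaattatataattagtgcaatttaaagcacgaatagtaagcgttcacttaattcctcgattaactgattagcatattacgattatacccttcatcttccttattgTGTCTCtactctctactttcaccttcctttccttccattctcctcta
IAA19: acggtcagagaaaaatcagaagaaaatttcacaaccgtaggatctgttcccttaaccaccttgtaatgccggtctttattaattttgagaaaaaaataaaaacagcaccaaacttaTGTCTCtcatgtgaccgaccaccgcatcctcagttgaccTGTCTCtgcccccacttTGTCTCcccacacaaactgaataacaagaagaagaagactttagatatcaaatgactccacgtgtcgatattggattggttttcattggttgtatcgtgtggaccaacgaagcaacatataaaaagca

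A match was found in 8 of the 17 called auxin genes (GH3.3, GH3.5, IAA5, IAA19 with 3 matches, IAA1, IAA3, GH3.2 and IAA6), in 9 of all 21 tested list members and in 12.7% of the same windows of 19773 tested genes. For the sulfate list, the core of the sulfur-responsive element, GAGAC or GTCTC, was found in 0 of 9 called and 3 of 19 tested members, against 29.7% of windows. GAGAC lies within GAGACA, so the 2 motifs overlap. A match is a description of letters and says nothing of binding, and no match says only that these letters are not in the window.

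GH3.3 (AT2G23170), which conjugates auxin to amino acids and is itself induced by auxin, stood at 67.9, 88.8 and 83.2 CPM in ref5-1 med5 and 18.2, 16.4 and 14 CPM in ref2-1 med5. That gives a log2 fold change of 2.31 ± 0.18 without overlap (adjusted p = 1.47e-06). Its relatives GH3.5 (81.4, 105 and 79.5 CPM against 32.7, 30.3 and 26.1 CPM) and GH3.6 (228, 261 and 216 CPM against 101, 98.3 and 96 CPM) were higher by 1.58 ± 0.15 and 1.26 ± 0.12 on the log2 scale (adjusted p = 5.17e-06 and 3.74e-06). Among Aux/IAA repressors IAA19 (AT3G15540) was at 16.8, 23.5 and 16.7 CPM and 7.75, 8.3 and 8.81 CPM, a log2 fold change of 1.2 ± 0.13 (adjusted p = 1.86e-05). IAA29 (1.6 ± 0.18) and IAA5 (1.55 ± 0.17) were higher too. HAT2 (AT5G47370), an auxin-induced homeodomain gene, was higher by 0.77 ± 0.08 (adjusted p = 8.71e-06). GH3.1 rested on few counts (27 to 47 counts in ref5-1 med5 and 0 to 5 counts in ref2-1 med5). IAA4, DAO1, SAUR20 and SAUR63 were not called. The list had 16 to 18 higher genes over all alternatives. Against med5, the shared control, GH3.3, GH3.5 and GH3.6 were higher in both triple mutants, in ref2-1 med5 by 0.67 ± 0.19, 1.18 ± 0.15 and 0.42 ± 0.12, and in ref5-1 med5 by 2.98 ± 0.19, 2.76 ± 0.16 and 1.68 ± 0.12.

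Type-A response regulators are cytokinin-induced genes that feed back on cytokinin signalling. In ref5-1 med5, 6 of 8 tested members were lower than in ref2-1 med5 (6.77% of genes tested were), with a median of -0.73. ARR6 (AT5G62920) stood at 9.5, 5.9 and 8.81 CPM in ref5-1 med5 and 16.5, 17 and 17.1 CPM in ref2-1 med5. The groups did not overlap, with a log2 fold change of -1.08 ± 0.16 (adjusted p = 0.000342). ARR4 (AT1G10470) was at 63.4, 53 and 77.7 CPM and 106, 96 and 111 CPM, a log2 fold change of -0.69 ± 0.12 (adjusted p = 0.00108). ARR5 and ARR16 were at -0.76 and -0.98, and ARR15 at -0.99. ARR8 (-0.23) and ARR9 (-0.15) were not called. These 6 calls were made under every alternative. Against med5, the shared control, 7 of 8 were lower in ref5-1 med5 (4.2% of genes tested were lower) and 2 of 8 in ref2-1 med5 (7.52% of genes tested were lower). ARR15 was -2.02 ± 0.19 in ref5-1 med5 (adjusted p = 1.63e-06) and -1.02 ± 0.17 in ref2-1 med5 (adjusted p = 0.00103).

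**Figure D3:**
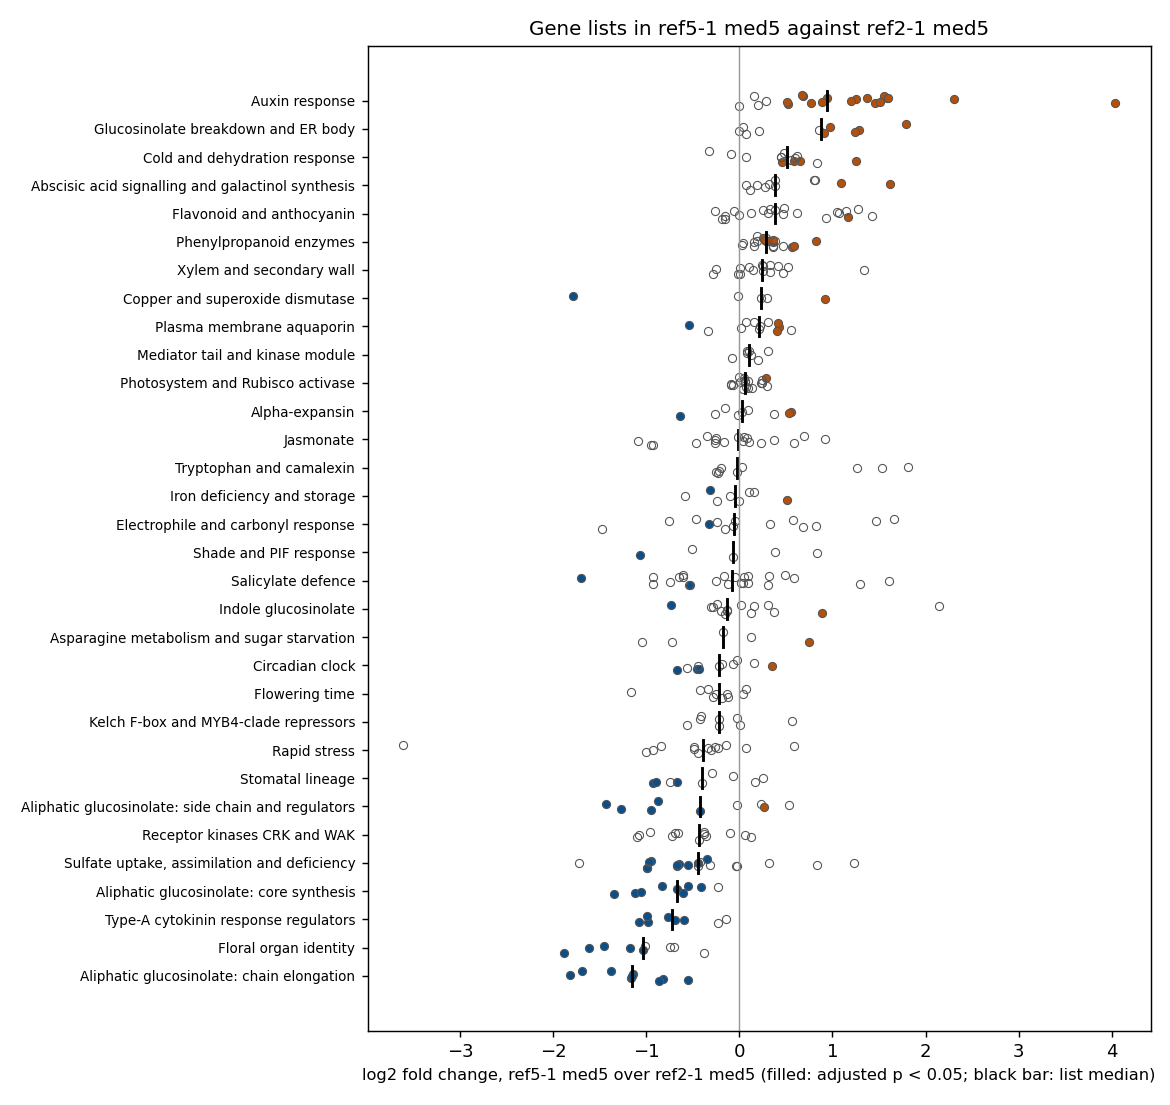
Log2 fold change of each tested list member, ref5-1 med5 over ref2-1 med5, with filled points called at an adjusted p under 0.05 and a black bar at the list median. Of the lists shown, the auxin list has the highest median (0.94) and chain elongation the lowest (-1.15).

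Phenylpropanoid enzymes were a little higher in ref5-1 med5. All 22 tested members had a positive log2 fold change, 11 were called (the background is 14% of genes), and the median was 0.29, a small shift on that scale. FAH1 (AT4G36220), ferulate 5-hydroxylase of sinapate synthesis, stood at 257, 246 and 235 CPM in ref5-1 med5 and 203, 177 and 193 CPM in ref2-1 med5, a log2 fold change of 0.36 ± 0.09 (adjusted p = 0.0139). OMT1 (AT5G54160), a caffeate O-methyltransferase, was at 297, 295 and 303 CPM and 236, 234 and 248 CPM, a log2 fold change of 0.32 ± 0.07 (adjusted p = 0.00712). PAL1 (AT2G37040), phenylalanine ammonia-lyase of the first step, was at 373, 329.8 and 379 CPM and 312, 267 and 310.3 CPM and was not called (log2 fold change 0.28, adjusted p = 0.156). The calls varied with the libraries: 3 were made without ref5-1 med5 replicate 1, 6 without ref5-1 med5 replicate 2, 6 without replicate 3, 3 without ref2-1 med5 replicate 1, 2 without replicate 2 and 7 without replicate 3. The list of Kelch F-box proteins, most of which target phenylalanine ammonia-lyase for degradation, and MYB4-clade repressors gave 0 calls of 8 in edgeR and 0 in DESeq2. It had 1 unadjusted p under 0.05 in edgeR and 1 lower call without ref2-1 med5 replicate 3. KFB39 (AT2G44130), a Kelch F-box gene, was at 2.43, 2.67 and 1.92 CPM in ref5-1 med5 and 3.9, 3.29 and 2.34 CPM in ref2-1 med5, against 1.72 to 2.21 CPM in med5, 11.4 to 12.3 CPM in wild type, 52.5 to 72.4 CPM in ref5-1 and 63.6 to 68.9 CPM in ref2-1. KFB39 was thus low in all 3 genotypes with med5. Flavonoid genes gave 1 higher call of 21 (7.25% of genes tested were higher), the regulator TT8 (1.17 ± 0.24, adjusted p = 0.00344). DESeq2 called 6 higher, where 1668 of 21289 genes were. A fit to the 6 compared libraries only called 8 higher, where 1589 of 19301 genes were.

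Among the stomatal lineage genes 3 of 9 tested were lower in ref5-1 med5, where 6.77% of all genes tested were lower. TMM (AT1G80080), a receptor-like protein that patterns stomata, stood at 10.2, 8.73 and 10.9 CPM in ref5-1 med5 and 21.7, 19.2 and 15.7 CPM in ref2-1 med5, a log2 fold change of -0.93 ± 0.11 (adjusted p = 3.74e-05). EPF2, a secreted peptide that limits stomatal entry, was -0.90 ± 0.19 (adjusted p = 0.00479), and BASL, a polarity protein, was -0.67 ± 0.16 (adjusted p = 0.0103), a call lost without ref5-1 med5 replicate 2 and without ref2-1 med5 replicate 2. Floral organ identity genes gave 5 lower of 9 tested, against the same 6.77% of all genes, and for the most part at low levels. FUL (AT5G60910), a MADS-box gene, was at 3.85, 2.29 and 3.27 CPM in ref5-1 med5 and 7.26, 6.82 and 6.96 CPM in ref2-1 med5, a log2 fold change of -1.18 ± 0.20 (adjusted p = 0.00113). AP1 (AT1G69120), another MADS-box gene, was at 0.686, 1.32 and 1.3 CPM and 2.69, 1.77 and 2.47 CPM. The count was 2 without ref5-1 med5 replicate 1 and without ref2-1 med5 replicate 3, and 3 without ref5-1 med5 replicate 3, ref2-1 med5 replicate 1 or ref2-1 med5 replicate 2, and 7 when the 6 compared libraries were fitted by themselves, and the AP1 call was lost without any 1 of the 6 libraries. Flowering time genes gave 0 calls of 10 in edgeR and 0 in DESeq2, with 1 unadjusted p under 0.05. FT (AT1G65480), the mobile flowering signal, was at 6.39, 6.19 and 6.3 CPM and 6.5, 6.45 and 5.38 CPM.

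The 12 called genes with the largest increases in ref5-1 med5, among those with at least 5 CPM and no overlap, included 6 annotated as lipid-transfer family proteins. AT4G15160 stood at 25.1, 31.2 and 22.6 CPM in ref5-1 med5 and 0.448, 0.164 and 0.22 CPM in ref2-1 med5, a log2 fold change of 6.56 ± 0.37 (adjusted p = 2.74e-08). LTP4 (AT5G59310) was at 11.3, 10.7 and 20.5 CPM and 0.896, 0.411 and 0.485 CPM, a log2 fold change of 4.56 ± 0.50 (adjusted p = 5.39e-05), and AT1G62510 was 2.70 ± 0.26. AZI1 (AT4G12470), known for its part in systemic acquired resistance, was at 13.4, 18.4 and 12 CPM and 1.25, 0.617 and 0.441 CPM, a log2 fold change of 4.25 ± 0.46 (adjusted p = 5.39e-05). Its neighbours EARLI1 (3.28 ± 0.93) and AT4G12490 (3.05 ± 0.88) have near-identical copies, so their counts are uncertain, and their calls were lost without any 1 of the 6 libraries. Also among the 12 were AT2G19990, annotated as a PR-1-like protein (4.30 ± 0.36), AT2G19970 of the same CAP superfamily (3.80 ± 0.24), the berberine-bridge oxidases AT5G44380 (4.06 ± 0.42) and AT1G30760 (2.75 ± 0.23), the peroxidase AT2G38380 (2.78 ± 0.25) and AT3G24750 (2.63 ± 0.43), annotated as an uncharacterized protein.

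The 12 largest decreases were led by MRD1 (AT1G53480), on a list of loci known to vary between seed stocks, for which a difference of stock and of genotype cannot be told apart. It had 0, 3 and 3 counts in ref5-1 med5 and 211, 250 and 371 counts in ref2-1 med5, so its log2 fold change of -7.08 ± 0.64 rests on near-zero counts. The same locus had 777, 1112 and 664 counts in ref2-1 and 2 to 16 counts in ref5-1. It had 718, 745 and 782 counts in wild type and 34, 36 and 2 in med5, so it was also low in a genotype without ref5-1. QQS, on the same list, was -1.12 ± 0.31 (adjusted p = 0.0257), a call that held only without ref2-1 med5 replicate 3 among the leave-outs. HMT3 (AT3G22740), homocysteine S-methyltransferase of methionine synthesis, was at 15.3, 13.2 and 15.7 CPM in ref5-1 med5 and 97.5, 91.5 and 80.2 CPM in ref2-1 med5, a log2 fold change of -2.61 ± 0.22 (adjusted p = 5.76e-06). The 12 decreases were also chosen among called genes with at least 5 CPM and no overlap, so non-overlap was set by the choice. FSD1 (AT4G25100), iron superoxide dismutase, was at 55.3, 65.4 and 38.4 CPM and 111, 155 and 287 CPM, a log2 fold change of -1.79 ± 0.33 (adjusted p = 0.00349). The others were AT2G47880, a glutaredoxin (-4.08 ± 0.24), the asparaginase ASPGB1 (-3.78 ± 0.32), AT1G15150, a MATE efflux protein (-2.28 ± 0.22), AT2G22930, a UDP-glycosyltransferase (-2.16 ± 0.28), the methionine sulfoxide reductase MSRB4 (-2.13 ± 0.18), the metal-binding protein AT3G57460 (-1.89 ± 0.50), the glutamine synthetase GLN1;4 (-1.71 ± 0.19), BCAT4 and WRKY46. FSD1 was not called when the 6 compared libraries were fitted by themselves, and AT3G57460 was not called there or without ref5-1 med5 replicate 1, ref2-1 med5 replicate 1 or ref2-1 med5 replicate 3.

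The same contrast without the med5 alleles, ref5-1 against ref2-1, gave 4258 called genes (21.4% of genes tested) and uses none of the triple mutant libraries. Of the genes called, 1149 were called in both comparisons in the same direction, 735 higher and 414 lower, which are 41.2% of the 2791 and 27.0% of the 4258, and 34 were called in opposite directions. In 84.6% of the 2791 genes the sign was the same. Between the single mutants, 9 of 9 chain-elongation and 5 of 9 core glucosinolate genes were lower in ref5-1 (11% of genes tested were). Type-A response regulators gave 5 lower and 1 higher of 8. Auxin genes gave 18 higher of 21 (10.4% of genes tested were higher), and phenylpropanoid enzymes 13 higher and 1 lower of 22. Stomatal lineage genes gave 4 higher and 0 lower of 9, with a median of 0.32, against -0.41 between the triple mutants. The change in the difference between the lesions with loss of MED5 was tested itself, as an interaction, and 585 genes were called (2.94% of genes tested), 330 toward higher and 255 toward lower values in the ref5-1 genotype. The interaction had 4107 genes at an unadjusted p under 0.05, and the count moved with the libraries. It was 74 without ref2-1 med5 replicate 2, 98 without ref2-1 med5 replicate 1, 999 without ref2-1 med5 replicate 3 and 1012 without ref5-1 med5 replicate 1. It was 171 without ref5-1 med5 replicate 2, 174 without ref5-1 med5 replicate 3, and 282 to 383 without any 1 library of ref5-1 or ref2-1. Of 44 genes with a called interaction that were named by the rule or belong to a list, 17 were called under every alternative.

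**Figure D4:**
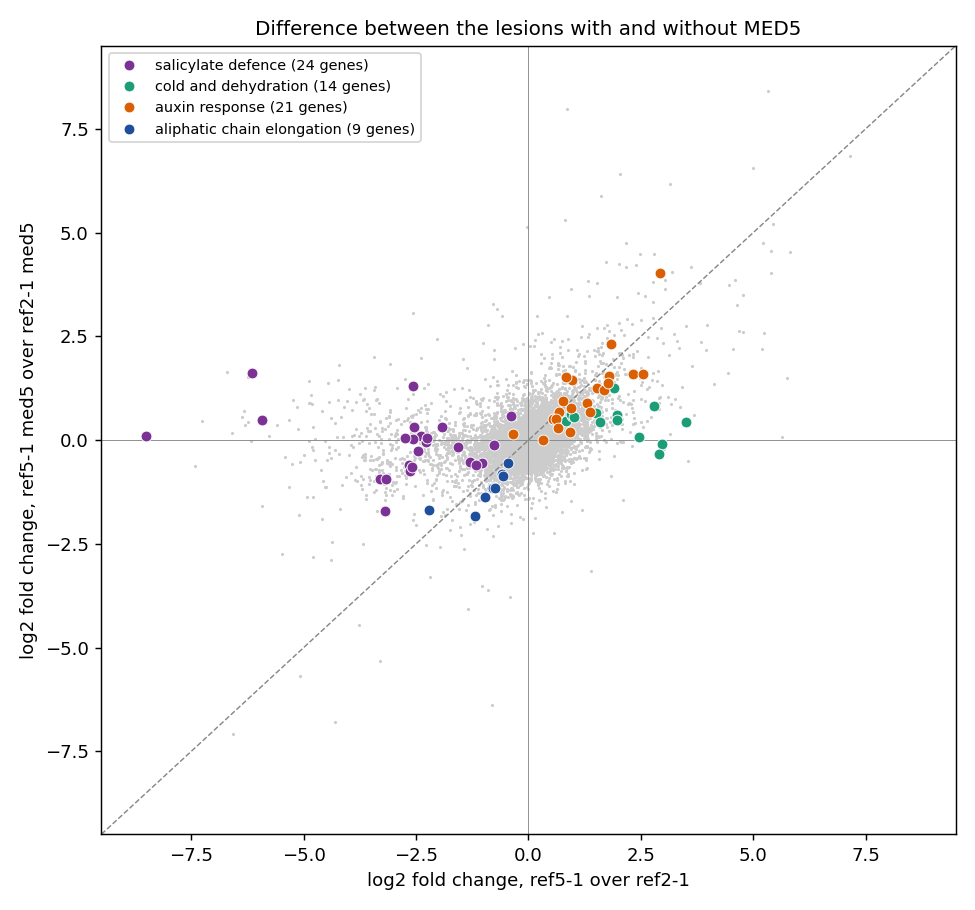
Log2 fold change of each tested gene in ref5-1 med5 over ref2-1 med5 (y) and in ref5-1 over ref2-1 (x), with 4 lists in colour and a dashed line of equality. The salicylate list has a median of -2.56 on the x axis and -0.08 on the y axis, and the auxin list 0.97 and 0.94.

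Salicylate defence genes differed between the single mutants and few did between the triple mutants. In the single mutants 23 of 24 tested genes were lower in ref5-1 than in ref2-1 (11% of genes tested were lower), whereas between the triple mutants 2 of 24 were lower, near the 6.77% of all genes. PR1 (AT2G14610), a classic salicylate-induced marker, was at 31.2, 127 and 138 CPM in ref5-1 med5 and 56.2, 123 and 100.5 CPM in ref2-1 med5, while it was at 0.563 to 0.762 CPM in ref5-1 and 143 to 397 CPM in ref2-1. The triple mutant libraries overlapped (log2 fold change 0.09 ± 0.82, adjusted p = 0.959), and the interaction was 8.61 ± 1.55 (adjusted p = 0.019). WRKY70 (AT3G56400), a salicylate-pathway transcription factor, was at 32.3, 89.2 and 87.7 CPM and 54, 75.9 and 74.1 CPM in the triple mutants, against 16.7 to 17.6 CPM in ref5-1 and 59.7 to 96.6 CPM in ref2-1, with an interaction that was not called (2.29 ± 0.68, adjusted p = 0.0836). In both genes ref5-1 med5 replicate 1 was the lowest of its group, and that library was the lowest of the 3 for 24 of 24 list members. The list median was -2.56 between the single mutants and -0.08 between the triple mutants.

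The interaction was called toward higher values for 5 of 24 genes (1.66% of genes tested), PR1, PR5 (2.48 ± 0.55), FMO1 (7.76 ± 1.44), ACD6 (2.85 ± 0.68) and NPR1 (0.65 ± 0.17), and all 24 had a positive sign. FMO1 had 0, 2 and 1 counts in ref5-1, so the size of its change rests on near-zero counts. The interaction was called for 18 genes without ref5-1 med5 replicate 1 and 11 without ref2-1 med5 replicate 3. It was called for 0 without ref2-1 med5 replicate 1 or 2, and 2 without any 1 of the remaining 8 libraries of these 4 genotypes. The 2 calls between the triple mutants were WRKY46 (AT2G46400), at 3.33, 9.11 and 10.2 CPM and 16.3, 17 and 41.7 CPM, and SAG101 (-0.53 ± 0.15), and both were lost without ref5-1 med5 replicate 1, without ref2-1 med5 replicate 3 and when the 6 compared libraries were fitted by themselves. The WRKY46 call was also lost without ref5-1 med5 replicate 2, and without ref5-1 med5 replicate 1 edgeR called 2 list members higher. CRK and WAK receptor kinases gave 0 calls of 13 in edgeR and 0 in DESeq2 between the triple mutants, with 2 unadjusted p under 0.05. In the single mutants 13 of 13 were lower in ref5-1 than in ref2-1 (11% of genes tested were lower). For WAK2 and WAK3 the interaction was called (1.86 ± 0.39 and 3.96 ± 0.91), and without any 1 library 0 to 9 genes of the list were. CRK4 (AT3G45860) was at 6.7, 17.3 and 19.4 CPM in ref5-1 med5 and 23.8, 24.5 and 44.4 CPM in ref2-1 med5.

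**Figure D5:**
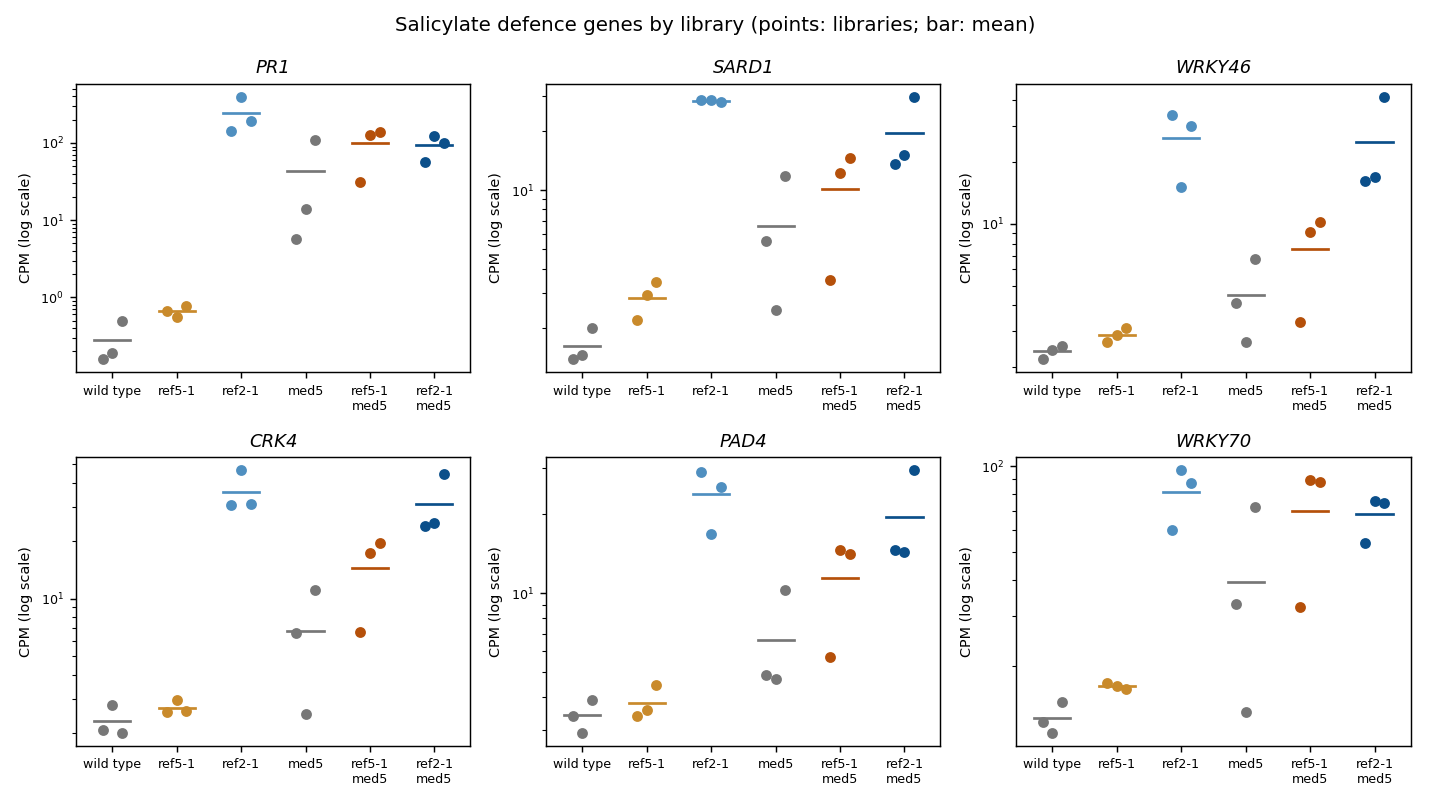
CPM on a log scale of PR1, SARD1, WRKY46, CRK4, PAD4 and WRKY70 in each library by genotype, with points for libraries and bars for means of 3. In all 6 panels ref5-1 lies below ref2-1, and ref5-1 med5 replicate 1 lies below the other ref5-1 med5 libraries.

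Cold and dehydration genes differed in the opposite direction in the single mutants. There 13 of 14 tested genes were higher in ref5-1 (10.4% of genes were higher). Between the triple mutants 4 were (7.25% of genes were higher), and the list medians were 1.94 and 0.51. COR413IM1 (AT1G29395), a cold-induced chloroplast membrane protein, was at 7.81, 8.92 and 6.78 CPM in ref5-1 med5 and 10.2, 5.47 and 9.47 CPM in ref2-1 med5, against 30.8 to 39 CPM in ref5-1 and 2.8 to 6.21 CPM in ref2-1. The interaction was -3.06 ± 0.33 (adjusted p = 0.000579), and COR15A (-2.38 ± 0.54) and RD29B (-3.23 ± 0.55) were called too (1.28% of genes tested were called in that direction). The COR413IM1 and RD29B calls held under every alternative, and the COR15A call was lost in 9 of them. RAB18 (AT5G66400), a dehydrin, was still higher, at 9.71, 11 and 6.5 CPM and 3.63, 4.15 and 3.66 CPM (1.26 ± 0.25, adjusted p = 0.00345). Without ref5-1 med5 replicate 2, and without ref2-1 med5 replicate 1, 2 of the 4 calls were made. Abscisic acid and galactinol genes gave 2 higher of 11 between the triple mutants (7.25% of all genes were higher) and 9 higher of 11 between the single mutants (10.4% of all genes), and 1 of the 2 calls was made without ref5-1 med5 replicate 1 or 2 or ref2-1 med5 replicate 1 or 2. GolS2 (AT1G56600), galactinol synthase, was 1.62 ± 0.36 (adjusted p = 0.00976) between the triple mutants and 4.44 ± 0.45 between the single mutants, an interaction of -2.82 ± 0.59 (adjusted p = 0.0275) that was lost without ref2-1 replicate 1, ref2-1 replicate 3, ref5-1 med5 replicate 3, ref2-1 med5 replicate 1 or ref2-1 med5 replicate 2.

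Genes whose triple-mutant and single-mutant differences were called in opposite directions included LTP6 (AT3G08770), another lipid-transfer protein. It stood at 62.3, 63.7 and 60.1 CPM in ref5-1 med5 and 96.6, 116 and 96.4 CPM in ref2-1 med5, a log2 fold change of -0.73 ± 0.09, and was 0.55 ± 0.09 between the single mutants. The interaction was -1.29 ± 0.13 (adjusted p = 0.000232). The aquaporin PIP2;5 (-0.54 ± 0.11 in the triple mutants, 0.35 ± 0.10 in the single mutants) did the same with an interaction of -0.90 ± 0.15. The pectin methylesterase PMEPCRF was 0.59 ± 0.11 and -0.36 ± 0.11, in the opposite sense. These 3 interaction calls held under every alternative.

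Electrophile response genes gave 1 lower of 14 (6.77% of all genes were lower), the alkenal reductase AER. Its log2 fold change was -0.33 ± 0.10 (adjusted p = 0.0373), a call lost without any 1 of the 6 libraries. Against med5, 12 of 14 were higher in ref5-1 med5 (6.24% of all genes were higher) and 11 of 14 in ref2-1 med5 (8.75% of all genes). Of the 12, the calls of GSTU25, OPR2, CYP81D11 and UGT73B5 were lost without ref5-1 med5 replicate 3. Without that library, edgeR also called 5 of the 14 lower in ref5-1 med5 than in ref2-1 med5, against 1238 of all 20078 genes tested. GSTU25 (AT1G17180), a glutathione S-transferase, was at 0.317, 0.251 and 16.3 CPM in ref5-1 med5 and 1.39, 1.32 and 2.56 CPM in ref2-1 med5, so replicate 3 lay above the ref2-1 med5 range and its replicates below it. AKR4C9 (AT2G37770), an aldo-keto reductase, was at 24.8, 19.3 and 30.4 CPM in ref5-1 med5 and 28.5, 25.8 and 22.6 CPM in ref2-1 med5, against 2.52 to 3.43 CPM in med5. Xylem and secondary wall genes gave 0 calls of 16 in edgeR and 0 in DESeq2, with 3 unadjusted p under 0.05. Of these 16, 1 was called higher without ref5-1 med5 replicate 3 or ref2-1 med5 replicate 3. In the single mutants 10 were higher in ref5-1 than in ref2-1 (10.4% of all genes). Photosystem genes gave 1 higher call of 19 (7.25% of all genes were higher), RCA, Rubisco activase (0.29 ± 0.09, adjusted p = 0.0381). That call was lost without ref5-1 med5 replicate 1 or 2 or ref2-1 med5 replicate 1 or 2. Without ref5-1 med5 replicate 3 the list gave 4 higher calls, where 1361 of all 20078 genes tested were higher. Between the single mutants 13 were higher (10.4% of all genes). Jasmonate genes gave 0 of 19 in edgeR and 0 in DESeq2, with 0 unadjusted p under 0.05, and rapid stress genes 0 of 14 in both tools with 2 unadjusted p under 0.05 and 1 lower call without ref5-1 med5 replicate 2. Mediator tail and kinase module genes gave 0 of 7 in both tools with 1 unadjusted p under 0.05.

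In the smaller lists the calls were scattered. Over all genes tested, 7.25% were called higher and 6.77% lower. Clock genes had LHY higher (0.36 ± 0.08) and TOC1 (-0.46 ± 0.09), LUX (-0.67 ± 0.18) and ELF3 (-0.44 ± 0.14) lower, out of 11 tested, and the LUX call was lost without ref5-1 med5 replicate 2 or 3 and the ELF3 call in 8 of 12 alternatives. Among alpha-expansins, which loosen walls, EXPA4 (0.56 ± 0.10) and EXPA5 (0.54 ± 0.12, lost without ref2-1 med5 replicate 2) were higher and EXPA1 (-0.64 ± 0.11, adjusted p = 0.00118) was lower. Plasma membrane aquaporins gave 3 higher of 12, PIP1A (0.41 ± 0.12), PIP2A (0.42 ± 0.12) and PIP2;6 (0.42 ± 0.09), and 1 lower. The count of higher aquaporins was 1 without ref5-1 med5 replicate 1 or 2, and 1 without ref2-1 med5 replicate 1 or 2. NAS4, nicotianamine synthase, was higher (0.51 ± 0.12, lost without ref2-1 med5 replicate 1) and the ferritin FER3 lower (-0.32 ± 0.09, lost without ref5-1 med5 replicate 2, ref2-1 med5 replicate 1 or ref2-1 med5 replicate 2) among 8 iron genes. The shade regulator PAR1 was lower (-1.07 ± 0.19, adjusted p = 0.00151) and the glutamate dehydrogenase GDH2 was higher (0.75 ± 0.20), a call lost without ref5-1 med5 replicate 3, ref2-1 med5 replicate 2 or ref2-1 med5 replicate 3.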

How the data were processed

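The files held whole-number read counts per gene for 18 libraries, deposited as raw counts by the authors. Per the submitters' processing notes the tools were Trimmomatic, TopHat2 2.1.0, HTSeq 0.6.1 and edgeR, with the TAIR10 build. The strand setting of the counting is not given in the sources used here, so antisense and overlapping genes are uncertain, as are near-identical copies.

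The 5 summary lines were left out of library sizes and tests. In R 4.3.3, edgeR 4.0.16 fitted 1 coefficient per genotype to all 18 libraries, with TMM scaling, filterByExpr (19897 of 33602 IDs tested), a robust quasi-likelihood fit, and calls at a Benjamini-Hochberg adjusted p under 0.05. The SE of a log2 fold change is its size divided by the square root of the test's F value. The interaction is the difference between the triple mutants minus that between the single mutants. DESeq2 1.42.0, RLE and upper-quartile scaling, no filter, a fit to the compared libraries alone, a replicate block and leaving out each library were the alternatives. Named genes were the targeted genes, the 12 highest and 12 lowest called fold changes with at least 5 CPM and no overlap, up to 4 called members a list by adjusted p, and the 6 smallest interaction p in each direction. Other list members were named after their values were seen. The members and lists were chosen with earlier results of these data known. Gene symbols came from the RefSeq table, in which 403 of 425 list members had the symbol used or a synonym. Promoter windows came from TAIR10.1 alone and no coordinates were carried between builds.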

Additional observations from a re-analysis of the deposited data

Results flagged for a closer look

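The difference between the lesions changed with loss of MED5, by the interaction test of edgeR with Benjamini-Hochberg adjustment, for 585 genes. The values below are log2 changes of the ref5-1 over ref2-1 difference on going from plants with MED5 to plants without it, each past the threshold. Salicylate and receptor kinase genes were PR1 (8.61), PR5 (2.48), NPR1 (0.65), FMO1 (7.76), ACD6 (2.85), WAK2 (1.86) and WAK3 (3.96). Cold, dehydration and abscisic acid genes were COR413IM1 (-3.06), COR15A (-2.38), RD29B (-3.23), HAI2 (-2.57), GolS2 (-2.82) and ERD14 (-0.78). Sulfur and glucosinolate genes were GSTF11 (-0.97), ESM1 (1.03), APR1 (-0.80), SULTR4;2 (-0.67), SULTR2;1 (-0.48), HMT3 (-1.17) and MSRB4 (-1.22). Other genes with a positive change were AT4G12490 (5.62), QQS (3.39), PR-1-LIKE (2.58), AT1G58561 (2.03), CNGC10 (1.49), AT3G62460 (1.35), AT2G30740 (1.17), PMEPCRF (0.95), FRO3 (0.92) and ALDH2C4 (0.68). Other genes with a negative change were PIP1C (-0.48), IAA14 (-0.70), SOC1 (-0.79), RVE1 (-0.89), PIP2;5 (-0.90), BASL (-0.92), AT2G04110 (-1.01), PAR1 (-1.05), GLN1;4 (-1.11), FUL (-1.17), TMM (-1.19), LTP6 (-1.29), AT2G47880 (-2.73) and ASPGB1 (-3.37). Of these 44 genes, 17 were called under every alternative and 27 were lost in at least 1.

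In ref5-1 med5 replicate 1, 25.3% of read records had several alignments, outside the counted genes, against 5.21% to 5.77% in the wild type libraries. It was also the library with the lowest salicylate genes of its group, and the part of its read composition in any result was not tested.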

How the results depend on the processing

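Of 97 named genes called between the triple mutants, 69 were called in the same direction under every alternative, 28 were lost in at least 1, and 0 changed sign. CYP83A1 ranged from 1.67 to 1.85 on the log2 scale. The 2791 calls between the triple mutants became 1421 to 2599 with 1 library left out, and 2758 with RLE scaling, 2758 with upper-quartile scaling, 2895 with DESeq2, 2465 with no filter and 2911 in a fit to the compared libraries alone. The interaction gave 1238 calls with DESeq2 and 74 to 1012 with 1 library left out. Upper-quartile scaling gave 682 interaction calls, 43.7% of them higher against 56.4% with TMM. For ref5-1 against ref2-1 the count was 2816 in a fit to the compared libraries alone and 3072 to 4030 with 1 library left out. Against med5, leaving out 1 library gave 1078 to 2079 calls for ref5-1 med5 and 1578 to 2579 for ref2-1 med5. The cause of these shifts was not tested. Deviations of same-numbered triple mutant libraries correlated at 0.049, -0.076 and 0.060, and those of differently numbered ones at -0.287 to 0.312. With 3 libraries a group these values cannot show whether replicate numbers pair the samples. With the replicate block the triple mutants gave 2694 calls and the interaction 1002. Depth limits the fold changes of GH3.1 and MRD1, whose lower groups held 5 or fewer counts per library. Other large values also rest on few counts. FMO1 had 0, 2 and 1 counts in ref5-1. In ref2-1 med5, AT4G15160 had 10, 4 and 5 counts and AT2G19990 had 9, 7 and 2.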
